A study of Bos grunniens with 18 samples.

Results

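The tubulins and the enzymes that modify them were read out in the testis of male yaks (Bos grunniens) at 3 ages. Gene entries were chosen by symbol alone, as the alpha, beta, gamma, delta and epsilon tubulins, the gamma-tubulin complex proteins and the TTL, TTLL, AGBL, VASH, SVBP, ATAT1 and HDAC6 genes. This gave 54 gene IDs with 50 distinct symbols, of 22183 genes in the deposited table. Entries written with another spelling, such as Ttll13, fell outside that rule and were not analysed here. The symbol TUBA1C stood on 3 gene IDs, TUBA1A on 2 and AGBL4 on 2, and each ID was kept apart. The entry TUBA1D is described in the table as tubulin alpha 3d.

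Whole testes were taken by castration from animals of a single cooperative at 6 months (Y6M), 18 months (Y18M) and 4 years (Y4Y), with 3 animals per age and no treatment, so age is the only factor. Ribosomal RNA was depleted from total RNA before sequencing, so polyadenylated and non-polyadenylated transcripts were both kept. A separate stage label in the records names the 4-year animals as infants and the 18-month animals as adults, and the ages used here are those of the sample titles and the sampling description. The libraries held 22.95 M to 33.12 M estimated counts. Summed markers of haploid germ cells (16 of 16 present in the table) lay between 20.6 and 30.2 CPM (counts scaled to the TMM-adjusted library size) at 6 months, at 247.3 to 3908.1 at 18 months and at 4081.0 to 5507.5 at 4 years. Markers of meiotic germ cells (14 of 14) lay at 19.6 to 47.0, 744.1 to 1627.3 and 1428.1 to 1587.1 CPM. Sertoli cell markers (13 of 13) were at 8428.0 to 9992.9 CPM at 6 months, 1606.5 to 4531.6 at 18 months and 1279.0 to 1337.1 at 4 years. Leydig cell markers (6 of 6) lay at 15177.6 to 21832.9, 2547.0 to 5855.5 and 2432.6 to 4357.0 CPM, and fibroblast and matrix markers (8 of 8) at 2823.9 to 3637.9, 274.2 to 992.1 and 249.0 to 271.5. Markers of rete, efferent duct and epididymis (8 of 8) lay at 23 to 36.7, 61.5 to 132.0 and 134.9 to 149.3 CPM. No marker of these lists was at 0 in all libraries, and the part of these cell types in the results below was not tested. At 18 months, replicate 2 stood apart, with the lowest haploid and the highest Sertoli sums of its age. Because whole tissue was sequenced, fewer cells of a type and less RNA per cell cannot be told apart in any value below.

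Microtubules are polymers of alpha and beta tubulin dimers, nucleated by gamma-tubulin in a ring complex. In the testis they form the meiotic spindle, the manchette that shapes the spermatid head, the axoneme of the sperm tail and the long bundles of Sertoli cells. Tubulins are marked after translation. The terminal tyrosine of alpha tubulin is removed by the vasohibins with their partner SVBP and put back by TTL. Chains of glutamate or glycine are added to the tails by TTLL enzymes and glutamates are trimmed by the carboxypeptidases of the AGBL family. A lysine inside the microtubule is acetylated by ATAT1 and deacetylated by HDAC6. Glutamylation, glycylation and acetylation are abundant on axonemes.

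Most tubulins and modifying enzymes differed between 6 months and the older ages. Of the 54 IDs, 50 passed the low-count filter and were tested in edgeR's quasi-likelihood fit over all 16742 genes, with Benjamini-Hochberg adjustment and a call at an adjusted p under 0.05. At 18 months against 6 months, 29 were higher, 12 lower and 9 were not called, which is 82.0% called, beside 59.9% of all genes called, 32.7% higher and 27.1% lower. At 4 years against 6 months, 31 were higher, 14 lower and 5 were not called, beside 73.9% of all genes called, 36.7% higher and 37.2% lower. Their median log2 fold change was 1.19 at 18 months and 1.72 at 4 years, where the median over all genes tested was 0.02 and -0.06. Both comparisons use the same 6-month libraries and are not independent of each other. Scaling by library size alone moved the median of all genes at 18 months to 0.43 and the called tubulins and enzymes to 32 higher and 7 lower, and that of called genes to 72.6% higher, against 54.7%. At 4 years the same scaling gave 32 higher and 12 lower members. In CPM, 43 of the 50 had no 18-month library within the 6-month range or the reverse, beside 65.1% of genes, and 46 had none at 4 years, beside 83.0%. The 4 IDs not tested were TUBB5, at 0 in all libraries, TUBB1, which did not exceed 0.320 CPM in any library, and the second TUBA1A and AGBL4 entries, which did not exceed 1.59 and 0.127 CPM.

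**Figure D1:**
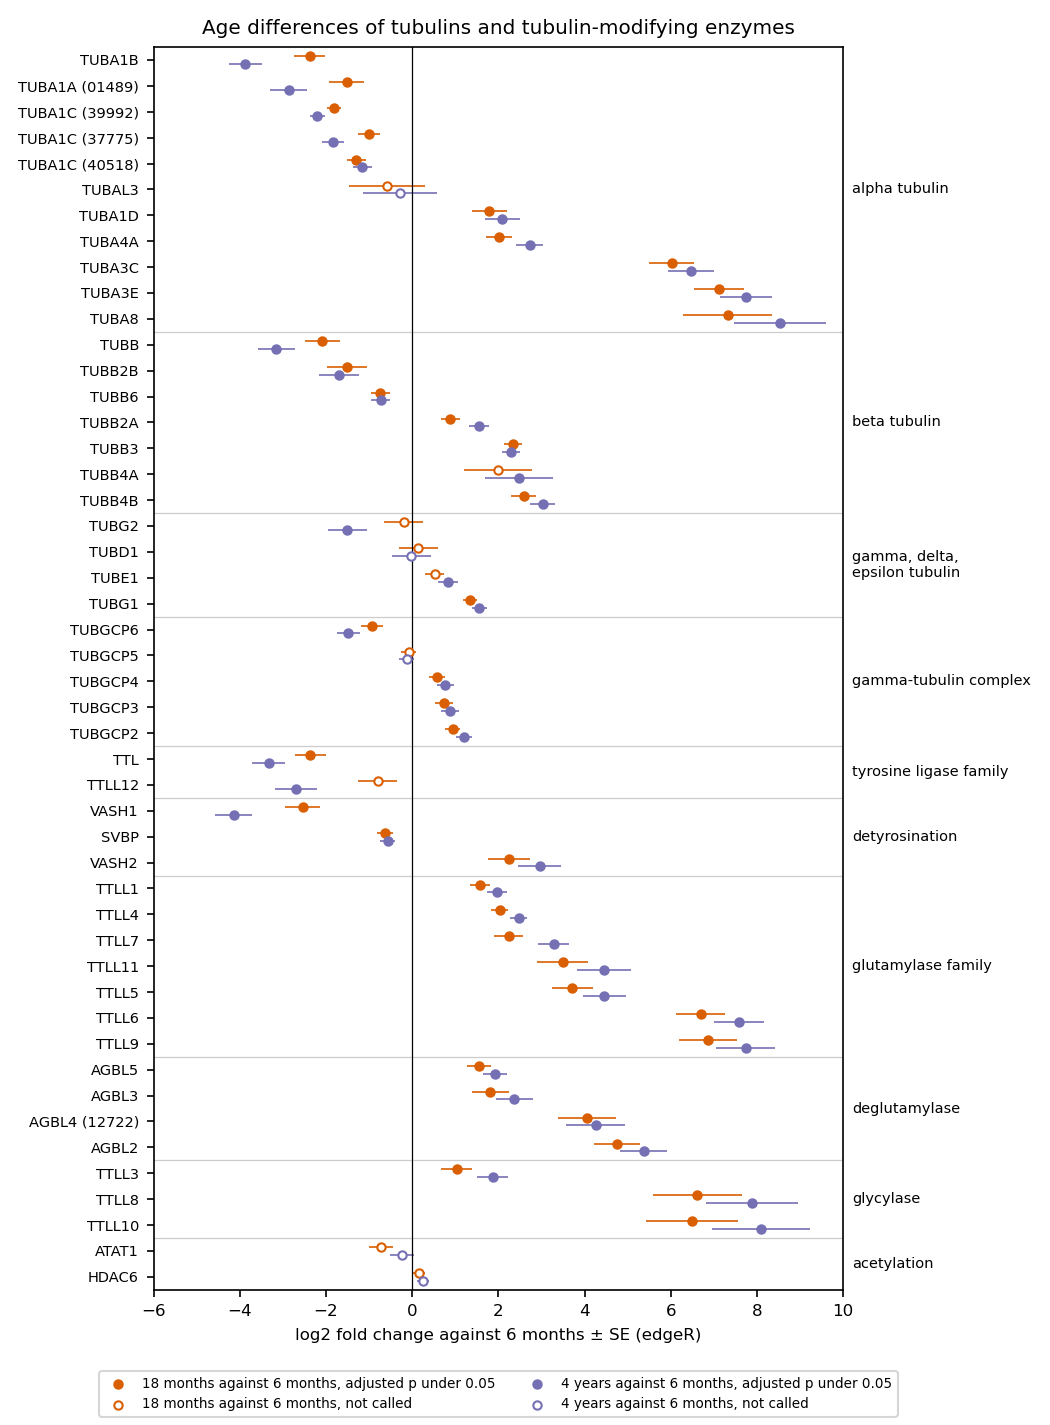
Log2 fold changes against 6 months with their standard errors from the edgeR fit, for 48 of the 50 tested gene IDs grouped by role, in orange for 18 months and purple for 4 years. Filled points passed an adjusted p of 0.05; TTLL2 and AGBL1 are left out because their 6-month libraries held 0 and 3 counts, and suffixes are the last digits of the gene ID. The glutamylase, deglutamylase and glycylase entries lie to the right of 0, and the alpha and beta tubulins lie on both sides.

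Alpha tubulin shifted from TUBA1A and TUBA1B to TUBA3E with age. The summed alpha tubulin level was 1797.5 ± 217.1 FPKM (fragments scaled to transcript length and depth by the authors, mean ± SD, n = 3) at 6 months, 1471.4 ± 63.9 at 18 months and 1440.5 ± 105.0 at 4 years. Within that sum TUBA3E, of the subfamily that is testis-enriched in mouse, held 0.127%, 0.328% and 0.114% in the 6-month libraries, 55.1%, 19.2% and 44.5% in the 18-month libraries and 60.3%, 60.6% and 61.4% in the 4-year libraries. TUBA1A (ENSBTAG00000001489), a broadly expressed isotype known from developing neurons, held 52.4%, 60.1% and 62.6% at 6 months, 15.9%, 55.3% and 29.5% at 18 months and 12.8%, 12.6% and 13.5% at 4 years. The 4-year shares of both were separate from those at 6 months, and the second 18-month animal was nearer to 6 months than the other 2. In CPM the alpha sum was 4224.4 ± 666.2, 2464.6 ± 116.8 and 2479.6 ± 295.4 at the 3 ages, a larger fall than in FPKM.

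In FPKM, TUBA3E went from 2.06, 5.67 and 2.33 at 6 months to 793.8, 296.2 and 635.8 at 18 months and 915.7, 898.7 and 810.8 at 4 years. It rose by 7.11 ± 0.58 (log2, SE) at 18 months and 7.75 ± 0.60 at 4 years (edgeR adjusted p = 6.10e-05 and 3.75e-05). TUBA3C, its close relative, was at 0.730, 1.86 and 1.31 FPKM, then 159.6, 58.1 and 115.4, then 153.9, 157.2 and 128.3, a rise of 6.02 ± 0.52 and 6.47 ± 0.53. TUBA8, a divergent alpha isotype, was at 0.378, 0.137 and 0.322 FPKM, then 110.3, 6.44 and 42.8, then 137.1, 131.9 and 97.5. All 3 genes were low in every 6-month animal, and among the 18-month animals TUBA8 differed more than TUBA3E and TUBA3C did. The rise of TUBA8 was 7.32 ± 1.03 and 8.53 ± 1.07 (adjusted p = 4.53e-04 and 1.71e-04).

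TUBA1B, a ubiquitous isotype, was at 679.4, 592.2 and 670.5 FPKM at 6 months, 86.1, 268.7 and 153.5 at 18 months and 63.4, 52.4 and 53.9 at 4 years. It fell by 2.38 (SE 0.36) and 3.87 (SE 0.38) on the log2 scale (adjusted p = 6.16e-04 and 6.65e-05). TUBA1A fell by 1.52 (SE 0.41) and 2.86 (SE 0.43), with its 18-month change not called when scaled by library size alone (adjusted p = 0.0552). All 3 TUBA1C entries fell at both ages, by 1.00 to 1.81 at 18 months and 1.16 to 2.20 at 4 years. The TUBA1 genes are nearly identical in their coding sequence, so the split of reads among them and among their duplicate entries is uncertain. For TUBA3E, TUBA3C and TUBA1D, the entry described as tubulin alpha 3d, the split of reads is uncertain as well. The separate levels and shares of these entries depend on that split. TUBA4A, whose gene encodes no terminal tyrosine, rose from 2.90 ± 0.860 to 14.5 ± 3.33 and 23 ± 2.62 FPKM (log2 2.01 ± 0.30 and 2.73 ± 0.31). TUBA1D rose too, at a low level of 1.60 ± 0.499 FPKM at 4 years. TUBAL3, a tubulin-like gene at under 0.3 FPKM throughout, was the only alpha entry tested and not called at either age.

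Beta tubulin moved from TUBB to TUBB4B. TUBB4B, the beta isotype found in axonemes, held 11.5%, 11.7% and 12.2% of beta tubulin FPKM at 6 months, 82.4%, 49.4% and 77.5% at 18 months and 82.3%, 80.4% and 80.9% at 4 years. TUBB, the broadly expressed class I isotype, held 55.5%, 59.4% and 72.0%, then 6.76%, 29.2% and 10.3%, then 5.47%, 5.62% and 6.63%. The ratio of TUBB4B to TUBB was thus 0.191 ± 0.0202 at 6 months, 7.14 ± 5.26 at 18 months and 13.9 ± 1.47 at 4 years. The summed beta level was 548.1 ± 55.4, 732.3 ± 46.0 and 829.2 ± 74.1 FPKM, and alpha over beta in FPKM went from 3.33 ± 0.772 to 2.02 ± 0.222 and 1.74 ± 0.0363. In CPM the beta sum was 1235.3 ± 80.1, 1410.2 ± 196.8 and 1702.5 ± 222.4. There the 18-month libraries (1582.0, 1195.5 and 1453.2) overlapped those at 6 months (1308.0, 1248.5 and 1149.4).

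**Figure D2:**
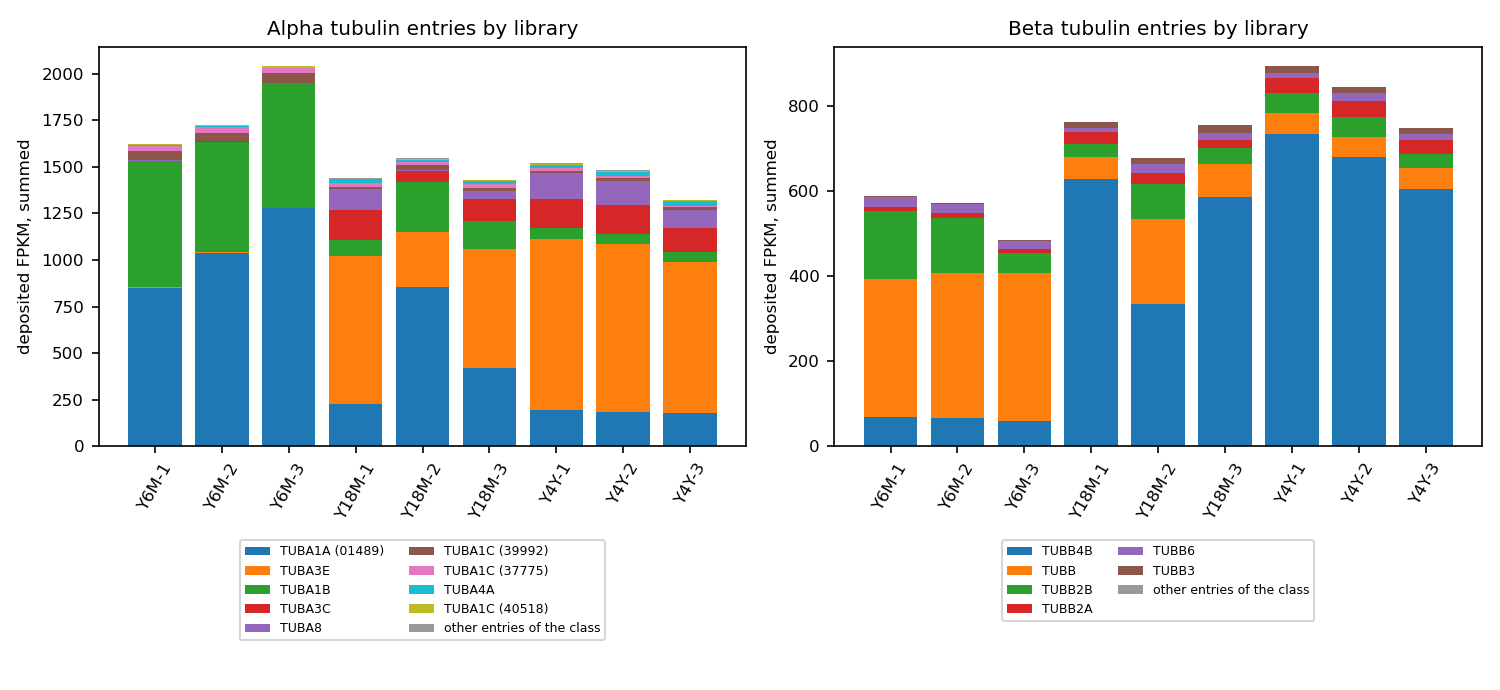
Deposited FPKM of alpha tubulin entries (left) and beta tubulin entries (right), stacked by gene ID in each of the 9 libraries. TUBA1A and TUBA1B fill most of the alpha bars at 6 months and TUBA3E most at 4 years; TUBB gives way to TUBB4B in the beta bars, and the second 18-month library is intermediate in both.

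TUBB4B rose by 2.59 ± 0.29 and 3.03 ± 0.29 (edgeR adjusted p = 1.67e-04 and 6.50e-05), from 64.5 ± 4.89 FPKM to 516.2 ± 158.1 and 673.7 ± 65.0. TUBB fell by 2.08 (SE 0.41) and 3.15 (SE 0.43), from 338.4 ± 11.5 FPKM to 109.3 ± 78.4 and 48.7 ± 1.13. TUBB2A and TUBB2B, adjacent genes with nearly identical products, moved in opposite directions, and reads of either could have been assigned to the other. TUBB2A rose from 7.86, 11.7 and 9.14 FPKM to 27.0, 26.1 and 17.4 and then 34.1, 39.3 and 33.1 (log2 0.89 ± 0.23 and 1.55 ± 0.24). TUBB2B went from 160.3, 129.9 and 47.4 FPKM to 32.2, 82.6 and 39.0 and then 46.8, 46.5 and 31.4. The third 6-month animal was far below the other 2 for TUBB2B. The 18-month fall of TUBB2B (1.51, SE 0.46, adjusted p = 0.0193) was lost without 6-month replicate 1 or 2 or 18-month replicate 1 or 3 (adjusted p = 0.0536 to 0.0735), and its 4-year fall was 1.70 (SE 0.46, adjusted p = 0.00882).

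TUBB3, the class III isotype of neurons and Sertoli cells, rose from 2.28 ± 0.207 to 15.5 ± 3.24 and 14.3 ± 1.37 FPKM (log2 2.34 ± 0.21 and 2.30 ± 0.21). Summed neuron markers were at 45.7 to 106.2, 50.5 to 56.8 and 36.9 to 41.0 CPM for the 3 ages (8 of 8 markers in the table), and the Sertoli sums given above were lower at the older ages. The part of these or other cell types in the rise of TUBB3 was not tested. TUBB6 fell by 0.74 and 0.73 (SE 0.22 each, adjusted p = 0.0179 and 0.0148). That call was lost at both ages when scaled by library size alone (adjusted p = 0.277 and 0.131) and without 6-month replicate 1 (0.0618 and 0.0520), at 18 months without 18-month replicate 3 (0.0521) and at 4 years without 4-year replicate 1 (0.0606) or 3 (0.0589). TUBB4A, a neural isotype, stayed at or under 0.428 FPKM and was called at 4 years (2.48 ± 0.78, adjusted p = 0.0171). At 18 months its change of 1.99 ± 0.78 (adjusted p = 0.0513) was called under 6 of the 15 alternatives (0.00941 to 0.0476). TUBB1, the platelet isotype, was listed at 0.022 ± 0.00985 FPKM at 4 years and was not tested.

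As shares of class CPM, 16 of 18 alpha and beta entries differed between the 3 ages by an exact permutation test over all 280 groupings of the 9 libraries (two-sided, adjusted over the 18 shares). Shares of a class add up to the whole, so a rise of 1 lowers others and the 18 tests are not independent. The smallest p that this design allows is 0.00357. TUBA3E, TUBA1B, TUBA4A and TUBB reached it (adjusted p = 0.0161). In the same exact test TUBB4B gave p = 0.0143 (adjusted 0.0230), TUBB2B gave 0.0643 (adjusted 0.0681) and TUBAL3 gave 0.661.

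The gamma-tubulin paralogs moved apart, with TUBG1 the higher in FPKM in every library. TUBG1, the widely expressed gamma-tubulin, was at 21.7, 22.1 and 22.2 FPKM at 6 months, 79.1, 66.1 and 77.3 at 18 months and 80.4, 89.6 and 78.5 at 4 years. TUBG2, known as the more brain-expressed copy in mouse, was at 17.8, 20.1 and 18.4, then 7.58, 39.3 and 17.4, then 9.30, 7.71 and 8.06. The 18-month animals thus spanned from below the 4-year range to above the 6-month range for TUBG2, while TUBG1 was high in all 3 of them. TUBG1 rose by 1.34 ± 0.16 and 1.56 ± 0.17 (edgeR adjusted p = 2.51e-04 and 8.50e-05). TUBG2 fell by 1.50 (SE 0.46) at 4 years (adjusted p = 0.0153), a call lost without 4-year replicate 2 (0.0512) or 3 (0.0525). At 18 months its change was -0.20 ± 0.45 (adjusted p = 0.710), and -0.82 without 18-month replicate 2 (adjusted p = 0.0260). The ratio of TUBG1 to TUBG2 was 1.22, 1.10 and 1.20 at 6 months, 10.4, 1.68 and 4.45 at 18 months and 8.64, 11.6 and 9.74 at 4 years. The paralogs are close in sequence, so reads could be split between them.

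In the gamma-tubulin complex, TUBGCP2 and TUBGCP3, the core pair that binds gamma-tubulin, rose by 0.94 ± 0.18 and 0.74 ± 0.21 at 18 months and by 1.20 ± 0.18 and 0.87 ± 0.21 at 4 years. TUBGCP3's 18-month call was lost without 6-month replicate 1 (adjusted p = 0.0523). TUBGCP4, a subunit of the full ring, rose by 0.77 ± 0.19 at 4 years (adjusted p = 0.00505). At 18 months its rise of 0.57 ± 0.19 (adjusted p = 0.0273) was lost without 6-month replicate 1 or 2 or 18-month replicate 1 or 3 (0.0676 to 0.0908). TUBGCP6, another ring subunit, fell by 0.93 (SE 0.26) and 1.48 (SE 0.27), the former not called when scaled by library size alone (adjusted p = 0.18). TUBGCP5 changed by -0.08 ± 0.17 and -0.13 ± 0.17 and was not called. TUBE1, epsilon tubulin of centriole triplets, rose by 0.84 ± 0.23 at 4 years (adjusted p = 0.00929). At 18 months TUBE1 changed by 0.52 ± 0.23 (adjusted p = 0.0752) and was called with DESeq2, with library size alone, with RLE size factors, on the FPKM scale and without 18-month replicate 2 (adjusted p = 0.00729 to 0.0468). TUBD1, delta tubulin, changed by 0.14 ± 0.45 and -0.02 ± 0.45 and was not called.

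Of the 5 tyrosination genes that the symbol rule covers, 4 fell at 4 years and VASH2 rose, where 37.2% of all genes were lower and 36.7% higher. Among the 4, SVBP lost its call under several settings given below. Genes outside the symbol rule do not enter this count, so it does not describe every enzyme that could act on the terminal tyrosine. TTL, the ligase that restores the terminal tyrosine, was at 35.7, 36.6 and 48.7 CPM at 6 months, 4.54, 12 and 7.00 at 18 months and 4.90, 3.83 and 3.25 at 4 years. It fell by 2.36 (SE 0.36) and 3.33 (SE 0.38) (edgeR adjusted p = 6.83e-04 and 1.10e-04). TTLL12, a family member with no established ligase activity, was at 92.1, 113.3 and 118.5 CPM, then 22.3, 110.3 and 53.1, then 15.6, 15.9 and 18.6. Its fall was 2.69 (SE 0.49) at 4 years (adjusted p = 0.00103), and at 18 months the change was -0.80 ± 0.46 (adjusted p = 0.159), or -1.40 without replicate 2 of that age (adjusted p = 0.00342). That animal's TTLL12 and TUBG2 values lay at or above the 6-month mean, as did no 4-year value.

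The 2 vasohibins moved in opposite directions. VASH1 was at 11.7, 15.1 and 14.9 FPKM at 6 months, 1.55, 5.58 and 2.63 at 18 months and 0.920, 1.18 and 0.921 at 4 years. VASH2 was at 1.16, 1.15 and 0.542 FPKM, then 20.8, 4.35 and 12.9, then 19.2, 18.9 and 20.2. The age groups of 6 months and 4 years did not overlap for either gene, and the order of the paralogs was exchanged between them. VASH1 fell by 2.54 (SE 0.40) and 4.14 (SE 0.43), and VASH2 rose by 2.24 ± 0.49 and 2.96 ± 0.50 (adjusted p = 7.91e-04 and 8.08e-05 for VASH1, 0.00401 and 6.99e-04 for VASH2). In FPKM, the ratio of VASH2 to VASH1 was 0.0707 ± 0.0319, 6.37 ± 6.44 and 19.6 ± 3.14. The size of this ratio depends on the scale, as the length behind the FPKM of VASH2 differed between ages. In CPM, which is not scaled to transcript length, VASH1 had means of 96.1, 16.5 and 5.46 and VASH2 of 1.71, 8.06 and 13.3. The 18-month libraries were at 8.45, 27.7 and 13.5 CPM for VASH1 and 13.3, 3.56 and 7.36 for VASH2. The order at 18 months thus differed between animals and, for replicate 3, between scales. SVBP, the small chaperone both enzymes need, was at 44.7 ± 4.38, 38.3 ± 5.24 and 38.4 ± 2.19 FPKM. Its falls of 0.63 and 0.57 (SE 0.18 each, adjusted p = 0.0152 and 0.0189) were lost when scaled by library size alone (adjusted p = 0.267 and 0.18), at 4 years with RLE size factors (0.102) and without 6-month replicate 1 (0.0578 and 0.0680) or 3 (0.0520 and 0.0597). The 18-month fall was also lost without 18-month replicate 2 (0.0564), and the 4-year fall without any 1 of the 4-year animals (0.0516 to 0.0660). VASH1 is also known as an endothelial gene. Endothelial markers summed to 225.5 to 290.8, 161.4 to 220.9 and 189.9 to 228.8 CPM at the 3 ages (8 of 8 in the table), and their part in the fall of VASH1 was not tested.

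All 8 genes of the glutamylase group were higher at both ages, beside 32.7% of all genes at 18 months and 36.7% at 4 years. Their median log2 fold change was 3.61 and 4.46, the same when TTLL2 is set to its lower bound. TTLL2 held 0 counts in all 6-month libraries and 40.1, 1.98 and 17.3 CPM at 18 months and 51.1, 50.9 and 46.3 at 4 years. Against a floor of 3 counts over the 6-month group, TTLL2 was at least 456.2-fold higher at 18 months and at least 1136.3-fold higher at 4 years, where these floors cover counting error only. TTLL6, which extends long glutamate chains on axonemes, was at 0.055, 0.083 and 0.102 FPKM, then 15.9, 4.26 and 12.4, then 20.1, 19.2 and 18.9 (log2 6.70 ± 0.57 and 7.59 ± 0.58). TTLL9, which is needed for sperm motility in mouse, was at 0.128, 0.146 and 0.267 FPKM, then 44.7, 9.55 and 31.5, then 54.7, 52.9 and 47.1 (log2 6.86 ± 0.67 and 7.74 ± 0.69). TTLL2, TTLL6 and TTLL9 were thus near 0 at 6 months, and in each the second 18-month animal had the lowest value of its age.

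The other glutamylases were already present at 6 months. TTLL5, whose loss impairs sperm in mouse, went from 2.93, 4.30 and 3.16 FPKM to 79.6, 19.6 and 56.4 and then 92.7, 79.8 and 81.6, the highest level of the group at 4 years. It rose by 3.72 ± 0.48 and 4.46 ± 0.50 (edgeR adjusted p = 3.17e-04 and 1.04e-04). TTLL11, another elongating enzyme, rose from 1.00 ± 0.0918 to 14.5 ± 11.6 and 28.0 ± 2.71 FPKM (log2 3.49 ± 0.59 and 4.45 ± 0.62). TTLL7, which prefers beta tubulin, rose from 1.55 ± 0.266 to 9.82 ± 3.97 and 19.5 ± 1.18 FPKM (log2 2.24 ± 0.34 and 3.28 ± 0.35). TTLL1, the catalytic subunit of a polyglutamylase complex, and TTLL4, an initiating enzyme, rose least, by 1.58 ± 0.23 and 2.03 ± 0.19 at 18 months and 1.97 ± 0.24 and 2.47 ± 0.19 at 4 years. The level of TTLL5 over that of TTL was 0.358 ± 0.108 FPKM ratio at 6 months, 10.6 ± 6.20 at 18 months and 32.1 ± 7.69 at 4 years. This ratio depends on the scale too, as the length behind the FPKM of TTL differed between ages. In CPM, TTLL5 was at 19.2 ± 2.91, 253.0 ± 153.9 and 423.4 ± 35.0 and TTL at 40.3 ± 7.28, 7.86 ± 3.82 and 3.99 ± 0.840.

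**Figure D3:**
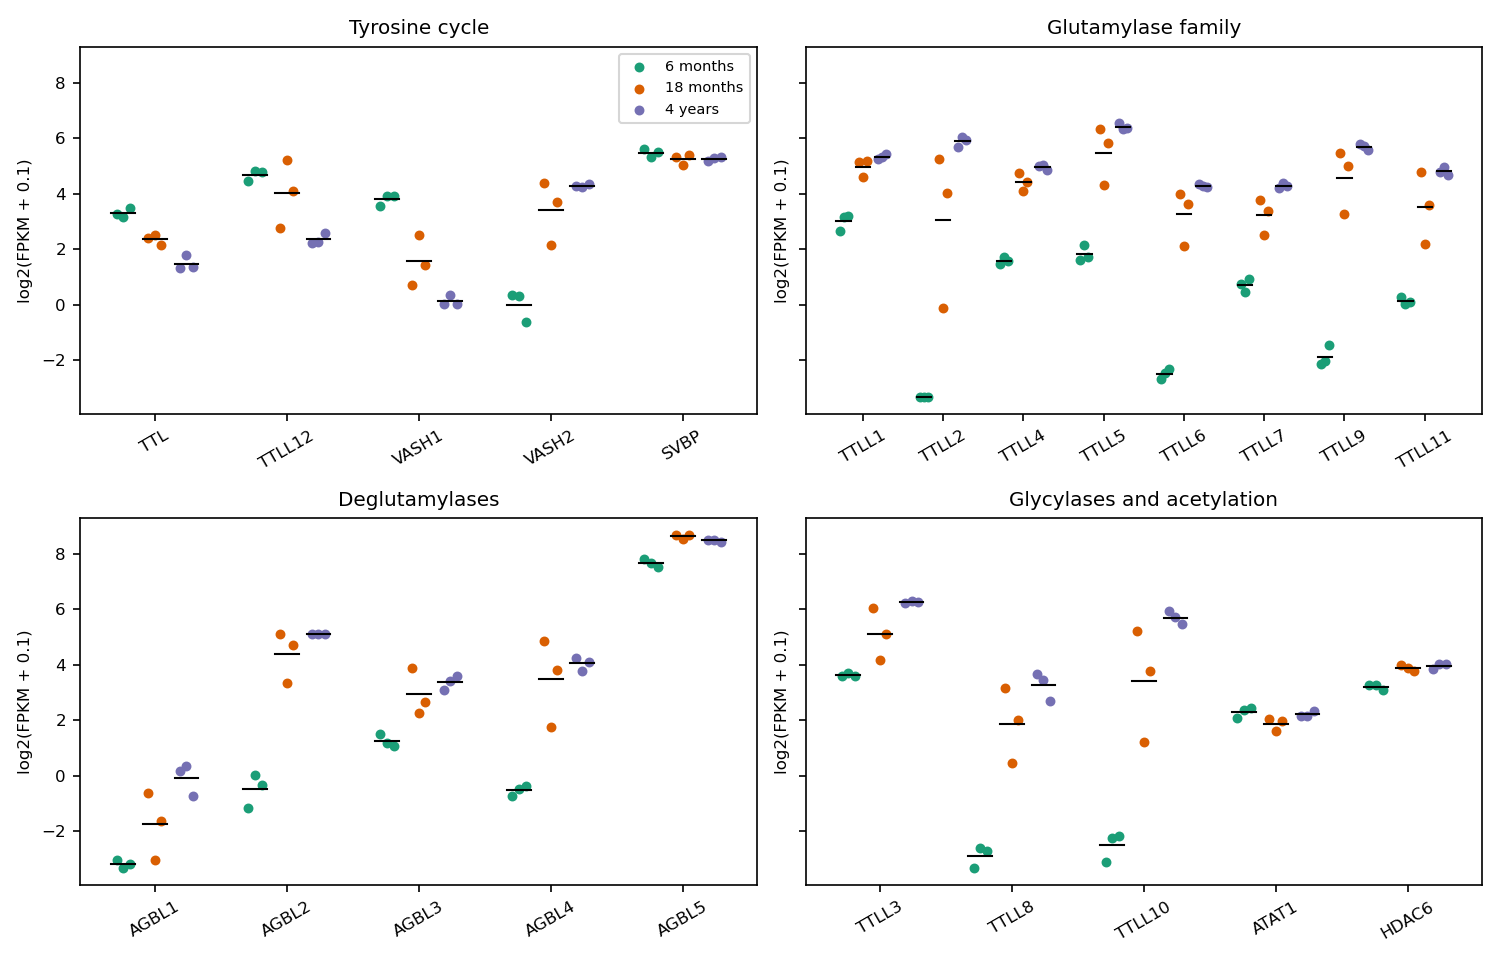
Levels of the modifying enzymes as log2(FPKM + 0.1) in each library, with the mean of each age as a black bar. VASH1 and VASH2 exchange order between 6 months and 4 years, and the glutamylases and glycylases are highest at 4 years by their means. ATAT1 and SVBP differ little on this FPKM scale, although the edgeR fit to counts called SVBP lower at both ages.

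The enzymes that remove glutamates rose as well. Of the AGBL family, 5 of 5 tested entries were higher at both ages, beside 32.7% of all genes at 18 months and 36.7% at 4 years. Their median was 4.06 and 4.26. AGBL2, which shortens long chains, rose from 0.348, 0.929 and 0.698 FPKM to 34.5, 9.96 and 25.8 and then 34.4, 34.0 and 34.1 (log2 4.75 ± 0.53 and 5.37 ± 0.54). AGBL4 (ENSBTAG00000012722) rose from 0.502, 0.611 and 0.675 FPKM to 28.9, 3.30 and 14.1 and then 19.0, 13.7 and 17.1 (log2 4.06 ± 0.68 and 4.26 ± 0.68). The first 18-month animal was above all 4-year animals for AGBL4, and the second was the lowest of its age for both genes.

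AGBL3, whose mouse form shortens glutamate chains, rose by 1.81 ± 0.43 and 2.37 ± 0.43, and AGBL5, which removes the branch-point glutamate, by 1.55 ± 0.28 and 1.92 ± 0.28. AGBL5 had the highest FPKM of all modifying enzymes at every age, 203.3 ± 21.6, 395.7 ± 24.7 and 356.5 ± 9.54. AGBL1 had 3 counts over the 6-month libraries, 77 at 18 months and 265 at 4 years, a ratio per TMM-adjusted library size of 19.5 (95% exact interval 6.43 to 96.7) and 68.5 (23.2 to 334.0). The 18-month counts came mostly from replicate 1, at 1.79, 0.0684 and 0.681 CPM, beside 3.34, 3.80 and 1.50 at 4 years. Its 18-month call (edgeR log2 4.14 ± 1.23, adjusted p = 0.0173) was lost without 6-month replicate 2 (0.0564) or 3 (0.0541) or 18-month replicate 1 (log2 2.99, adjusted p = 0.0555).

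All 3 glycylases were higher at both ages, beside 32.7% of all genes at 18 months and 36.7% at 4 years. Their median log2 fold change was 6.49 and 7.88. TTLL10, which elongates glycine chains in mouse, went from 0.016, 0.110 and 0.121 FPKM to 37.0, 2.25 and 13.6 and then 60.6, 52.4 and 44.0 (log2 6.49 ± 1.07 and 8.09 ± 1.13). TTLL8, an initiating glycylase of motile cilia, went from 0, 0.066 and 0.053 FPKM to 8.91, 1.27 and 3.89 and then 12.7, 10.7 and 6.39 (log2 6.62 ± 1.04 and 7.88 ± 1.07). TTLL3, the other initiating enzyme, was present from the start, at 12.1, 13.0 and 12 FPKM, then 66.6, 18.0 and 34.7, then 74.1, 78.9 and 75.9. At 4 years TTLL3 rose by 1.87 ± 0.36 (edgeR adjusted p = 0.00134). At 18 months its rise of 1.03 ± 0.35 (adjusted p = 0.0295) was lost without any 1 of the 6-month animals (0.0710 to 0.0822) and without 18-month replicate 1 (0.52, adjusted p = 0.0817) or 3 (0.0505).

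The acetylation pair was not called. ATAT1, the acetyltransferase, was at 4.84 ± 0.628, 3.59 ± 0.579 and 4.58 ± 0.363 FPKM, a change of -0.72 ± 0.28 at 18 months (edgeR adjusted p = 0.0536) and -0.24 ± 0.28 at 4 years (0.452). Without 18-month replicate 3 the 18-month change was -0.90 (adjusted p = 0.0474). HDAC6, the deacetylase, was at 9.19 ± 0.647, 14.7 ± 1.22 and 15.5 ± 0.984 FPKM, with fitted changes of 0.15 ± 0.14 and 0.25 ± 0.14 (adjusted p = 0.375 and 0.122). HDAC6 was called higher at 18 months with library size alone (0.54, adjusted p = 0.0121) and on the FPKM scale with limma (0.62, 0.00599). It was called higher at 4 years with library size alone (0.54, adjusted p = 0.00929), with DESeq2 (0.34, 0.00727), with RLE size factors (0.43, 0.0227), on the FPKM scale (0.70, 0.00223) and without 18-month replicate 2 (0.38, 0.0174).

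No tubulin or modifying enzyme was called between 18 months and 4 years by edgeR (0 of 50), where 1 of 16742 genes, or 0.00597%, was called. At an unadjusted p under 0.05 there were 14 members and 3572 genes. DESeq2 called 4 members, all lower at 4 years, and 1098 genes. The 4 were TUBA1B (-1.45, adjusted p = 0.00537), TTLL12 (-1.84, 0.00962), VASH1 (-1.55, 0.0114) and TUBA1A (-1.29, 0.0377). limma on log2(FPKM + 1) called 0 members and 5 genes, with 21 members and 4080 genes at an unadjusted p under 0.05.

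The count rested on the first 18-month animal. Without 18-month replicate 1, edgeR called 14 members higher and 8 lower at 4 years, and 2247 genes higher and 3360 lower. The lower ones were TUBA1A, TUBA1B, TUBB, TUBG2, TUBGCP6, TTL, TTLL12 and VASH1. Of the glutamylases TTLL4, TTLL5, TTLL6, TTLL7, TTLL9 and TTLL11 were higher, and so were TTLL3, TTLL10, AGBL1, AGBL3, VASH2, TUBA4A, TUBA8 and TUBB2A. This split leaves out the 18-month library closest to 4 years, so it describes the remaining 2 animals.

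The 18-month animals were placed on a scale from 0 at the 6-month mean to 1 at the 4-year mean of log2(CPM + 0.5), as a description. Replicate 1 stood at 0.96 for haploid germ cell markers and 1.01 for meiotic markers, replicate 3 at 0.80 and 0.95, and replicate 2 at 0.47 and 0.83. In replicate 2, TUBA3E stood at 0.78, TUBA3C at 0.77 and TUBB3 at 1.01, beside 0.83 for the meiotic and 0.84 for the Leydig cell markers. TUBA8 stood at 0.47, TTLL2 at 0.35, TTLL10 at 0.37 and TTLL8 at 0.40, beside 0.47 for the haploid and 0.54 for the fibroblast and matrix markers. Some members that fell with age stood there too, TUBB2B at 0.46, TUBA1B at 0.45, VASH1 at 0.44 and TUBB at 0.40. Other falling members ranged from -0.43 for TUBG2 to 1.08 for a TUBA1C entry, so this position did not set rising members apart. Rising members also stood in between, among them TTLL5 at 0.50, TTLL9 at 0.62, TUBB4B at 0.63, AGBL2 at 0.64, TTLL6 at 0.65 and TTLL4 at 0.70. The rising members named above are thus examples from a range and not separate groups. TTLL3 and AGBL1 stood at 0.03, TTLL12 at -0.01 and TUBG2 at -0.43, and the Sertoli markers at 0.15.

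**Figure D4:**
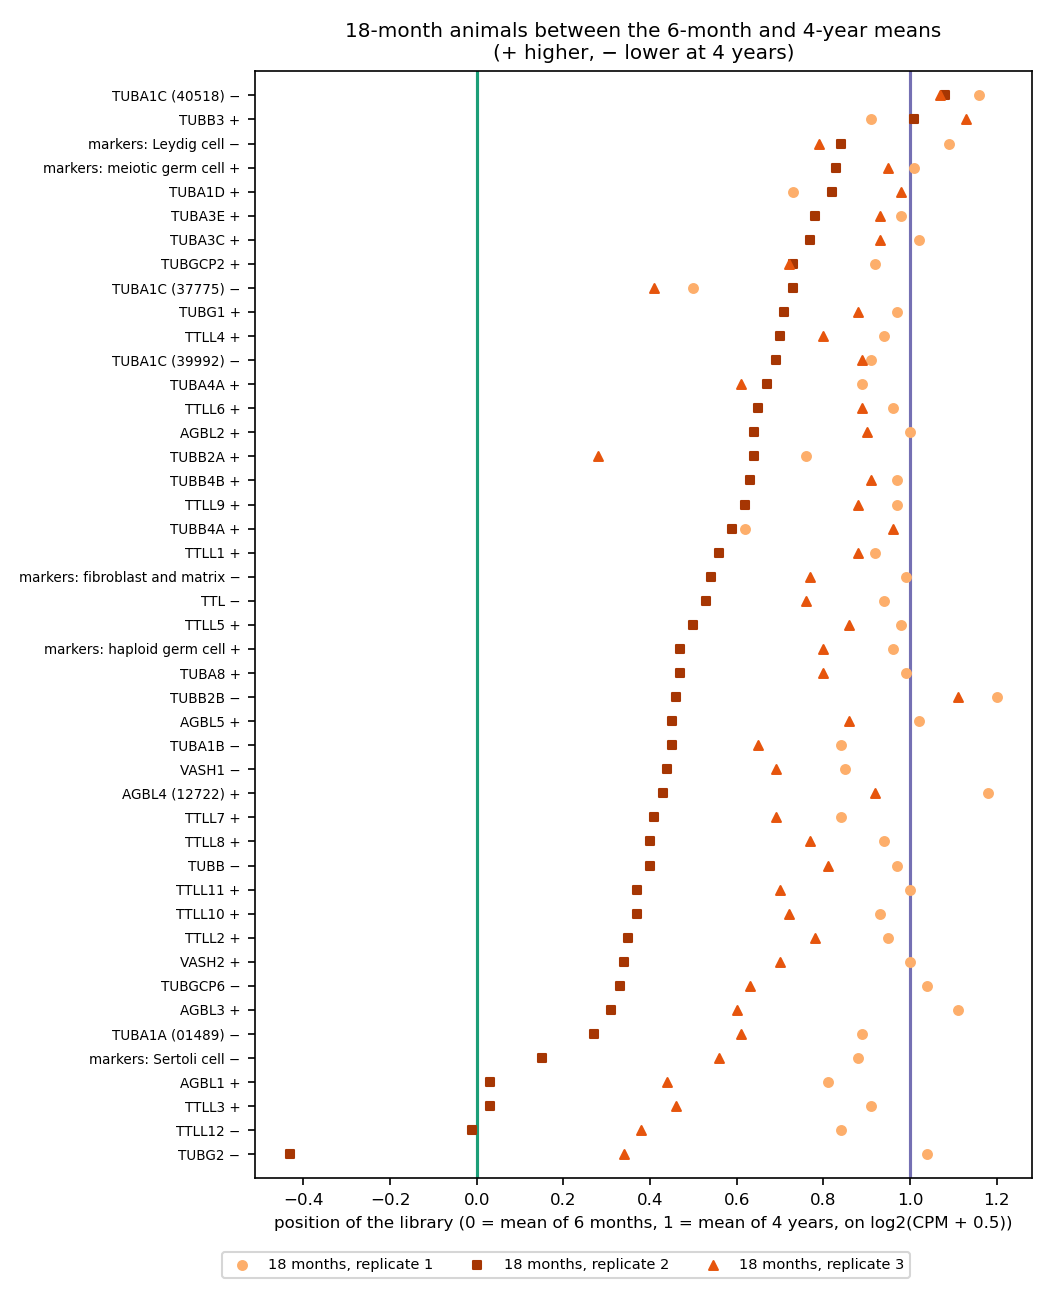
Position of each 18-month library between the 6-month mean (0, green line) and the 4-year mean (1, purple line) of log2(CPM + 0.5), for members called at 4 years with a log2 change of at least 1 and for marker lists that differ by as much (the platelet list is not drawn), sorted by replicate 2. Replicate 2 (dark squares) spreads from -0.43 for TUBG2 to 1.08 for a TUBA1C entry, while the haploid and meiotic markers, as means of log2 values, stand at 0.47 and 0.83.

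Genes that work with tubulins and their enzymes were taken from 6 lists chosen with earlier results of these data known. Of 12 tested partners of the modifying enzymes, 9 were higher and 2 lower at 4 years, with a median of 2.16. Over all genes 36.7% were higher and 37.2% lower at 4 years, with a median of -0.06, and the counts of each list below are to be read against these shares. TPGS2, a subunit of the TTLL1 polyglutamylase complex, rose by 3.90 ± 0.40, and LRRC49, another, by 3.64 ± 0.42. TPGS1, a further subunit, named here after its values were seen, fell by 2.27 (SE 0.29, edgeR adjusted p = 1.81e-04). CEP41, needed for axonemal glutamylation through TTLL6, rose by 5.08 ± 0.62. KIAA0895 of the same list rose by 5.46 ± 0.41, and KIAA0895L, named here after its values were seen, by 3.50 ± 0.57. Of 18 centriole assembly genes, 15 were higher and 1 lower (median 1.72), among them CETN1, the testis centrin, from 0.658 ± 0.601 to 1039.3 ± 33.7 FPKM, and PLK4, the kinase of centriole duplication (3.32 ± 0.39). Of 18 severing and destabilising genes, 12 were higher and 3 lower (median 1.81), with KATNAL2, a katanin-like protein needed for sperm in mouse, at 6.85 ± 0.65.

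The remaining lists held higher and lower genes, with shares of higher genes nearer to the 36.7% of all genes. Of 27 tubulin folding genes, 10 were higher and 6 lower (median 0.24). CCT6B, the testis form of a chaperonin subunit, rose by 5.44 ± 0.59, while its somatic paralog CCT6A fell by 1.25 (SE 0.20, edgeR adjusted p = 5.36e-04). Of 20 entries for gamma-tubulin recruitment, 9 were higher and 6 lower (median 0.27), with HAUS4 and HAUS6 of the augmin complex at 3.68 ± 0.37 and 2.41 ± 0.29 and NIN, which anchors microtubule minus ends, at -3.36 ± 0.42. Of 34 microtubule-associated protein entries, 13 were higher and 10 lower (median 0.23), with MAP1S at 3.68 ± 0.42 and EML1 at -2.28 ± 0.32.

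For most members the deposited count and FPKM moved together, and for a few they did not. Dividing the count by the FPKM gives the transcript length that the deposited FPKM implies, up to a factor for each library. That factor was taken as the most common ratio of such quotients between the library and the first library, over genes of at least 20 FPKM. Lengths are given here relative to the 6-month mean. This measure was chosen after the values were seen and is a description without a test. Among 40 members with enough counts, 3 differed at least 2-fold between 6 months and 4 years, beside 3.33% of 12298 genes. AGBL5 was at 0.985, 1.01 and 1.01 at 6 months, 2.44, 1.40 and 2.08 at 18 months and 2.92, 2.72 and 2.56 at 4 years, so its counts rose more than its FPKM. VASH2 went the other way, to 0.504, 0.478 and 0.474 at 4 years, and so did TTL, to 0.626, 0.351 and 0.440. The 6-month and 4-year libraries did not overlap for any of these 3 genes. AGBL3 (1.47) and TTLL4 (0.659) differed less. The fall of TTL was therefore smaller in FPKM (9.87 ± 1.18 to 2.72 ± 0.546) than in CPM, and the rise of VASH2 larger.

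**Figure D5:**
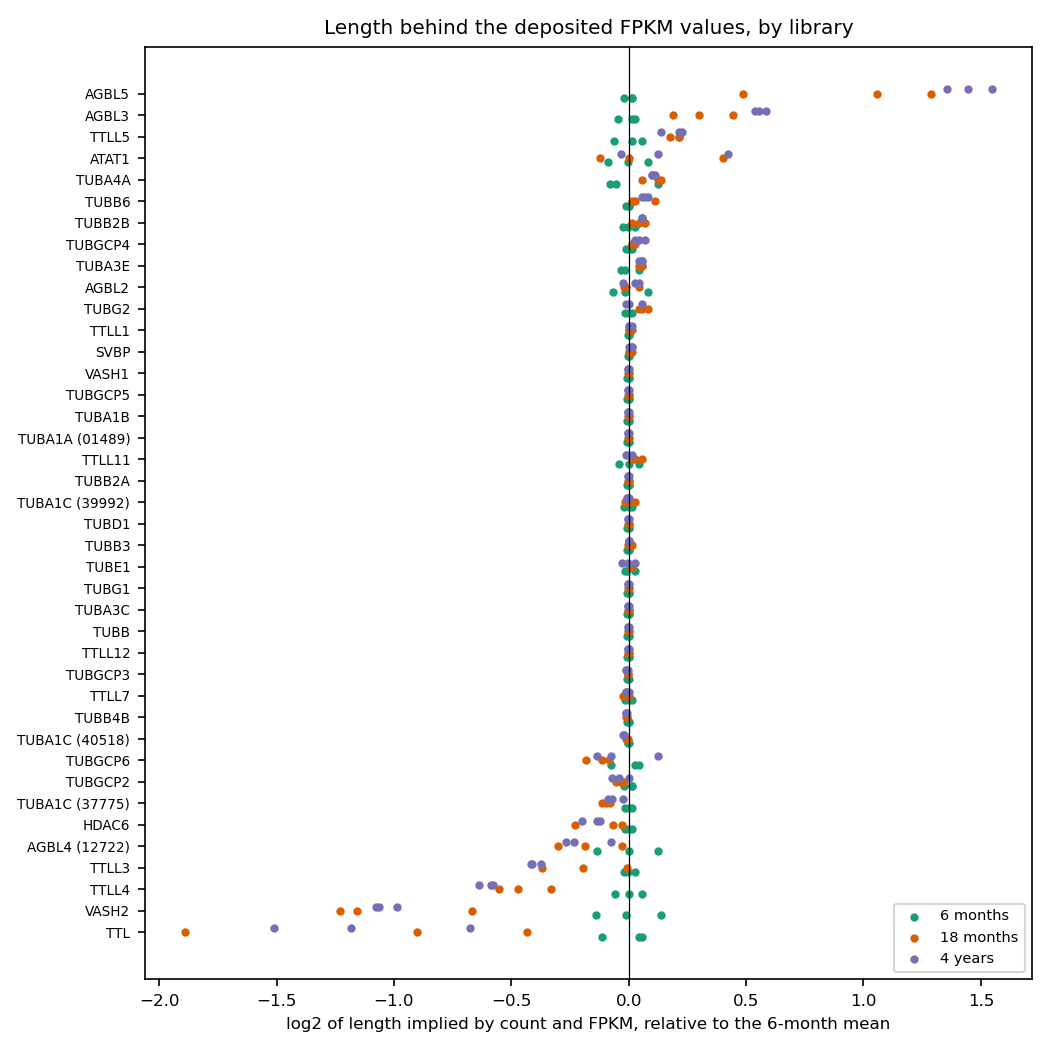
Log2 of the transcript length implied by count and FPKM for 40 members, relative to the 6-month mean, one point per library coloured by age. Most members lie at 0 in every library, whereas AGBL5 and AGBL3 lie to the right and TTL, VASH2, TTLL4 and TTLL3 to the left at 4 years.

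Circular RNAs were counted in the same libraries from reads across back-splice junctions. Of 73679 circRNAs in the deposited table, 167 had 1 of 30 members as source gene, with 1855 reads in all, and 4 passed the filter. The best covered was an exonic circRNA of VASH1 (novel_circ_003473, chromosome 10 in the table), with 85, 97 and 94 reads at 6 months, 8, 0 and 14 at 18 months and 3, 13 and 2 at 4 years. It was high in all 6-month animals and at 14 reads or fewer in all others. At 4 years it fell by 3.69 (SE 1.09, edgeR adjusted p = 0.0380, beside 21.0% of 3877 tested circRNAs called and 5.80% lower). That call was lost when any 1 of the 6-month or 4-year libraries was left out (adjusted p = 0.0556 to 0.124). At 18 months its change was -3.76 ± 1.09 (adjusted p = 0.0715, where 5.26% of circRNAs were called), and -3.06 without 18-month replicate 2 (adjusted p = 0.0392). The linear VASH1 counts fell over the same ages. Without a term for the linear gene, a change of the circRNA apart from its gene was not tested.

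TTLL5 gave the largest number of circRNAs, 44, with 22, 25 and 21 back-splice reads in sum at 6 months, 62, 15 and 55 at 18 months and 85, 80 and 40 at 4 years. AGBL3 gave 12, with 46, 14 and 17 reads, then 56, 29 and 29, then 56, 45 and 40. TTLL7 gave 27 with 257 reads and TUBGCP5 gave 21 with 115. The sums for TTLL5 were higher in every 4-year than 6-month library, and those of AGBL3 overlapped between these ages. No circRNA of TTLL5, TTLL7 or TUBGCP5 had enough reads to be tested. The tested circRNAs of TUBG1 and AGBL3 were not called in any comparison (edgeR adjusted p = 0.684 to 0.874). Among those listed under AGBL3, novel_circ_056125 is annotated as antisense.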

How the data were processed

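RNA was measured in 9 testis libraries, 3 animals per age. Per the labels' protocols, ribosomal RNA was removed with a depletion kit and paired-end libraries were sequenced. The submitters' processing notes name fastp 0.18.0, HISAT2 2.1.0, StringTie 1.3.4 and the cattle build UMD3.1, with no roles. The gene IDs are those of cattle, and no source used here says how reads of near-identical tubulins were split or whether strand was used. Estimated counts, some of them not whole (24 of the 54 member IDs), and the authors' FPKM values make up the deposited gene table. The deposited circRNA table holds counts of back-splice reads.

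Estimated counts were rounded. edgeR 4.0.16 (R 4.3.3) with filterByExpr, TMM scaling and the quasi-likelihood F-test was fitted to all 9 libraries, with Benjamini-Hochberg adjustment over all genes. SE is the log2 fold change divided by the root of F, with 6 residual degrees of freedom. CPM are counts scaled to the library total times its TMM factor. Alternatives were DESeq2 1.42.0, other scalings, no filter, a replicate block and leaving out each library. limma 3.58.1 on log2(FPKM + 1) was added after seeing the data. Scripts were tested on simulated data. The animals differ between ages, so replicate numbers do not pair them. The edgeR p-values rest on the spread between animals of the same age, pooled for each gene over all 9 libraries. Libraries of an age outside a comparison thus also enter the p-values of that comparison. Intervals and floors cover counting error only.

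All members could be named, with values per library for tubulins of at least 20 CPM at any age and for enzymes with a called change of at least 4-fold, and from each companion list up to 4 genes with the smallest p at 4 years. CCT6A was named after its values were seen. The members and lists were chosen with earlier results of these data known. Small RNA libraries and protein and promoter sequences were not used here.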

Additional observations from a re-analysis of the deposited data

How the results depend on the processing

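Of 100 member changes against 6 months, 73 kept their direction and their side of the threshold under all 15 alternatives. The number of lower members at 18 months was 7 with library size alone and 7 with limma on FPKM, and that of lower genes 2618 and 2866. Between 18 months and 4 years DESeq2 called 211 genes higher and 887 lower, with 4 members lower, and limma called 4 genes higher. Leaving out 1 library gave 0 to 2247 genes higher and 0 to 3360 lower, and 0 to 14 members higher and 0 to 8 lower. The circRNA of VASH1 was the 1 called at 18 months with DESeq2 and without a filter, leaving out 1 library gave 0 or 1 called at either age, and the replicate block gave 0 at 4 years. The cause was not tested in any of these.

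The same-numbered libraries of different ages correlated at -0.135 to 0.104 after the mean of each age was removed. Pairs with different numbers were not correlated, so this cannot show whether libraries of a number shared a processing step. With the replicate block, member calls were 27 higher and 13 lower at 18 months and 31 and 14 at 4 years. The block leaves fewer groupings for the exact test of shares, whose adjusted p was then 0.050 to 0.0882. The differences in share (percentage points, 4 years minus 6 months) under the block were -46.6 for TUBA1A, -30.4 for TUBA1B, -0.764, -1.43 and -0.0829 for the TUBA1C entries, 0.0752 for TUBA1D, 11.5 for TUBA3C, 52.9 for TUBA3E, 1.39 for TUBA4A and 13.4 for TUBA8. For beta tubulins they were -57.0 for TUBB, 1.50 for TUBB2A, 1.13 for TUBB3, 0.0379 for TUBB4A, 70.4 for TUBB4B and -2.03 for TUBB6.

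Leaving out 1 library raised the adjusted p of some shares past 0.05 while the difference ranged from -49.6 to -44.6 for TUBA1A, -0.875 to -0.678 and -0.106 to -0.0664 for TUBA1C entries, 0.0613 to 0.0869 for TUBA1D, -60.1 to -52.6 for TUBB, 1.34 to 1.66 for TUBB2A, 0.0323 to 0.0426 for TUBB4A and -2.19 to -1.87 for TUBB6. For TUBAL3 it ranged from -3.23e-04 to 0.00629.

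Changes that were not called could turn direction. On the log2 scale, ATAT1 at 4 years was 0.06 and TUBG2 at 18 months 0.24 with library size alone. TUBGCP5 was 0.32 and 0.17 at the 2 ages with library size alone, 0.02 and 0.05 with RLE, and 0.30 and 0.19 with limma on FPKM. TUBD1 at 4 years was 0.29, 0.16, 0.07 and 0.17 with library size alone, RLE, DESeq2 and limma. Leaving out 1 library gave -1.34 to 0.07 at 18 months and -0.80 to 0.38 at 4 years for TUBAL3, -0.11 to 0.32 and -0.57 to 0.24 for TUBD1, -0.11 to 0.02 and -0.27 to 0.00 for TUBGCP5, and -0.82 to 0.18 for TUBG2 at 18 months. Calls of SVBP, TUBB6, AGBL1 (18 months), TUBB2B (18 months), TUBGCP6 (18 months) and TUBG2 (4 years) were lost with limma on FPKM, as was that of the TUBA1C entry ENSBTAG00000037775 at 18 months (adjusted p = 0.0747).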

Other observations

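In the supplied RefSeq annotation of the yak assembly, which is not the build of the gene table and was used for gene order only, 39 member symbols were found. TUBB2A and TUBB2B, which moved in opposite directions, had 0 protein-coding genes between them. VASH1 and TTLL5 had 4 between them, and the first fell while the second rose. TUBGCP6, which fell, and TTLL8, which rose, had 5 between them. TTLL1, which rose, and TTLL12, which fell at 4 years, had 3 between them, and TUBB and ATAT1 had 6. This order is a description, chosen after the changes were seen.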
